A study of Mus musculus with 4 samples.

Results

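Myog-positive cells of the neonatal mouse Achilles tendon were chosen from 2 droplet single-cell RNA libraries by their counts of Myog, the gene of the muscle transcription factor myogenin. A barcode was taken when it had at least 500 genes, at least 1000 unique molecular identifiers (UMIs, the count of captured RNA molecules), at most 15% mitochondrial UMIs, at least 2 UMIs of Myog, at most 1 UMI of the leukocyte gene Ptprc and no UMI of the endothelial gene Cdh5. This gave 225 of the 25314 filtered neonatal barcodes, with 74 in the injured neonate and 151 in the control neonate, out of 36052 filtered barcodes in all 4 libraries. The cells were then ordered by an order score, the summed UMIs of Acta1, Mylpf, Myh3 and Myh8 per 10000 UMIs of the cell. Myog, Ptprc, Cdh5 and the 4 order genes therefore chose or ranked the cells, and their values are given as description.

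The study compared Achilles tendon with and without injury at 2 ages, with 1 library in each group. The groups were neonatal tendon with injury and without injury, both at postnatal day 3, and adult tendon with injury and without injury, both of 6 to 8 weeks. The terms injured neonate and control neonate name the libraries, not single mice. Cells were freed from the tissue by collagenase with DNase. The labels do not give the strain, the sex, the number of mice in a library or the time from injury to harvest. All differences between the injured and the control neonate are differences between 2 libraries with no replicate, so no test between groups was possible, and the 95% intervals cover counting error only.

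Skeletal muscle forms when proliferating progenitors that express Pax7, Myf5 or Myod1 leave the cell cycle, turn on Myog, fuse into multinucleated fibers and build sarcomeres. Myogenin and MyoD are basic helix-loop-helix factors that pair with E proteins and bind DNA at E-boxes, short sites with the letters CANNTG. The embryonic and neonatal myosin heavy chains Myh3 and Myh8, the fast regulatory light chain Mylpf and the skeletal actin Acta1 are parts of the contractile apparatus of newly formed muscle, and multinucleated fibers themselves are too large for droplet capture.

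The promoters of 4 genes are shown because the results turn on them: Myog chose the cells, Chrna1 was detected in most of them, and Acta1 and Mylpf ranked them. Each is the RefSeq sequence of the GRCm38.p6 build, 250 bases before to 50 bases after the annotated start, written 5′ to 3′ on the strand of the gene, with E-box letters in capitals. The intervals are chr1:134289754-134290053 on the plus strand for Myog, chr2:73580289-73580588 on the minus strand for Chrna1, chr8:123894726-123895025 on the minus strand for Acta1 and chr7:127211358-127211657 on the plus strand for Mylpf.
Myog: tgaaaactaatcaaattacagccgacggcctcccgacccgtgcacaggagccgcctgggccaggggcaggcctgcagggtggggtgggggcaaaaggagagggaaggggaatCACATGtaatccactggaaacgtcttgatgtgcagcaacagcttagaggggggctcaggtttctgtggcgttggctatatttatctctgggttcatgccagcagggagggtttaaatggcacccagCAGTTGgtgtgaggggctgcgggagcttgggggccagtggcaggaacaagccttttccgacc
Chrna1: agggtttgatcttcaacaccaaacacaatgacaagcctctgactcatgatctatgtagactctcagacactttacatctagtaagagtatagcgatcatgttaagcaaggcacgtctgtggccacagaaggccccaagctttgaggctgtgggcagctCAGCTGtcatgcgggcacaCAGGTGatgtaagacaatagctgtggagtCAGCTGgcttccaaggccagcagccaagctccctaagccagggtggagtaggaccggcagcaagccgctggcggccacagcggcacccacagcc
Acta1: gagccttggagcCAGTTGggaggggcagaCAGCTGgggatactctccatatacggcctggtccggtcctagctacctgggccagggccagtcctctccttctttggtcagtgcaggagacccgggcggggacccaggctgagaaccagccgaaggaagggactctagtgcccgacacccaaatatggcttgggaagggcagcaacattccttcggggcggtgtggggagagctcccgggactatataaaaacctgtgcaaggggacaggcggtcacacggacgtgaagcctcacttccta
Mylpf: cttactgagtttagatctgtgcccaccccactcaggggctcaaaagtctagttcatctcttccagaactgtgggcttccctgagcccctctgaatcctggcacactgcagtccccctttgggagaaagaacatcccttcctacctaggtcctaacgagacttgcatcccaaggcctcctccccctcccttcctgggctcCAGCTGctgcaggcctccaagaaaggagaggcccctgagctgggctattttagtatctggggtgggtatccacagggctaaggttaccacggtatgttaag
The pattern CANNTG, which reads the same on both strands, occurred 2 times in the Myog window, 3 times in that of Chrna1, 2 times in that of Acta1 and 1 time in that of Mylpf. Such letters are common, since 72.3% of 32851 promoters of the same length held at least 1 CANNTG. The narrower palindrome CAGCTG, one form of CANNTG, occurred 2 times in the Chrna1 window, 1 time each in those of Acta1 and Mylpf and not in that of Myog, and 16.3% of all promoters held it. A match describes the letters and is not evidence of binding.

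Depth differed between the libraries. The Myog-positive cells had a median of 6745.5 UMIs and 2567.5 genes in the injured neonate, against 10890 UMIs and 3386 genes in the control neonate, and all filtered barcodes had medians of 5748 UMIs in the injured and 10698 UMIs in the control library. The sums over the Myog-positive cells were 561824 UMIs in the injured and 1814026 UMIs in the control neonate. The 2 neonatal libraries shared 44 filtered barcodes, none of which was Myog-positive. Xist, the RNA of the inactive X chromosome, was detected in 60 of the 74 injured and 0 of the 151 control cells, and Y-linked genes (Ddx3y, Uty, Kdm5d and Eif2s3y) in 20 of the injured and 139 of the control cells, and 7 injured cells had both. In the injured library 53 cells had Xist alone and 13 had Y-linked UMIs alone, so it held cells of both sexes and of more than 1 mouse. Likely doublets, which the rule does not remove, made up 10.8% of the Myog-positive cells in the injured and 9.93% in the control neonate.

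The cells carried early muscle genes clearly and late ones weakly. Actc1, the cardiac actin that developing skeletal muscle also uses, was detected in 83.8% of injured and 95.4% of control Myog-positive cells, and Chrna1, the alpha subunit of the muscle acetylcholine receptor, in 81.1% of injured and 89.4% of control cells. Mymk, the membrane protein myomaker that fuses myoblasts, was detected in 67.6% of injured and 66.9% of control cells. Myod1 was found in 78.4% of injured and 60.9% of control cells. Leukocytes, the barcodes with at least 2 UMIs of Ptprc, should lack these genes. Their median depth was 5654 UMIs in 885 injured and 11520 UMIs in 519 control barcodes, and they showed Actc1 in 1.13% and 5.01%, Chrna1 in 0% and 0.385%, Mymk in 0.226% and 0.193% and Myod1 in 0.339% and 0.385% of injured and control barcodes. These 4 genes, which the rule did not use, thus stood far above the level seen in leukocytes of the same libraries.

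Of the 4 order genes, Acta1 and Mylpf were nearer to that level, and Myh3 and Myh8 were found in few cells. Acta1 had at least 1 UMI in 59.5% of injured and 67.5% of control Myog-positive cells, against 8.81% of injured and 40.5% of control leukocytes. Mylpf was in 18.9% of injured and 37.1% of control Myog-positive cells, against 5.2% of injured and 30.8% of control leukocytes. Myh3 was in 12.2% of injured and 23.2% of control Myog-positive cells, against 0.339% of injured and 0.578% of control leukocytes. Myh8 was in 10.8% of injured and 24.5% of control Myog-positive cells, against 0.452% of injured and 3.66% of control leukocytes. In the files the genes carry the identifiers ENSMUSG00000026459 (Myog), ENSMUSG00000031972 (Acta1), ENSMUSG00000030672 (Mylpf), ENSMUSG00000020908 (Myh3) and ENSMUSG00000055775 (Myh8). Of the genes that the rule did not use, Actc1 and Mymk go with the label of differentiating myocytes. Chrna1 and Myod1 mark the muscle lineage more broadly, since Myog-negative progenitors also held Chrna1 (44.7% of injured and 22.9% of control progenitors) and Myod1 (60.2% of injured and 35.1% of control progenitors), Myod1 being part of how they were chosen. Most Myog-positive cells had no UMI of Myh3 or of Myh8.

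**Figure D1:**
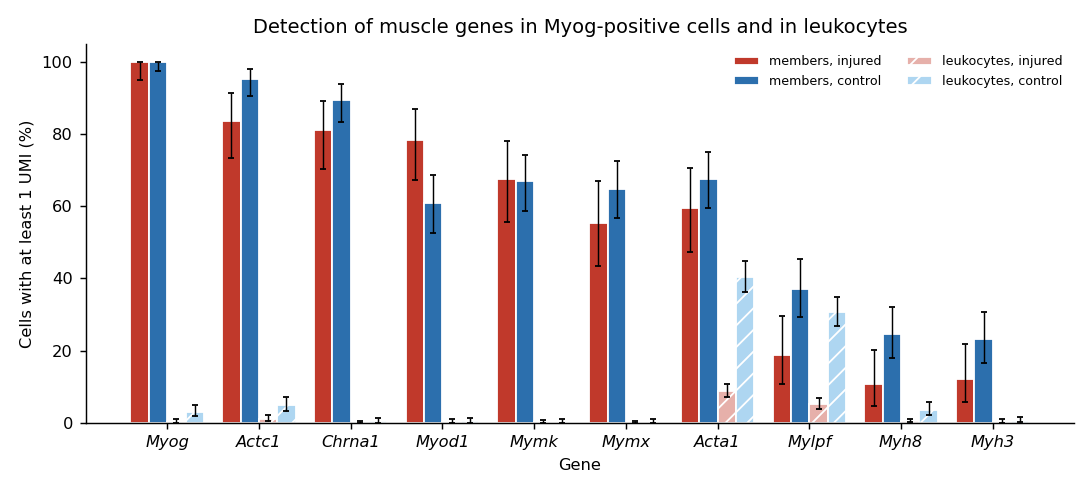
Share of cells with at least 1 UMI (vertical axis, %) of 10 muscle genes in Myog-positive cells (members, solid bars) and leukocytes (hatched bars) of the injured and control neonatal libraries, with exact binomial 95% intervals that cover counting error only. Actc1 and Chrna1 are in 81.1% or more of Myog-positive cells in each library and in at most 5.01% of leukocytes, whereas Acta1 and Mylpf are in 40.5% and 30.8% of control leukocytes.

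Markers of several other cell types were present in the Myog-positive cells, most of all those of fibroblasts. Of 6 fibroblast markers 3 were in at least 25% of the cells in each library, and their summed level was 5578 CPM (counts scaled to a sum of 1000000 UMIs over the cells summed) in injured and 5424 CPM in control Myog-positive cells, against 7696 CPM in injured and 5254 CPM in control leukocytes. Cells with over 100 fibroblast UMIs per 10000 numbered 8 in the injured and 14 in the control neonate. With the chondrocyte markers added to this threshold, 8 injured and 15 control cells passed it, of which 7 injured and 12 control cells were marked as likely doublets. Chondrocyte markers summed to 57.0 CPM in injured and 573 CPM in control cells, against 55.3 CPM in injured and 648 CPM in control leukocytes. One cell held 62.4% of the UMIs in the control Myog-positive cells, but Col2a1 was in 43.0% and Sox9 in 37.1% of them. The 5 tenocyte markers summed to 272 CPM in injured and 284 CPM in control Myog-positive cells, against 243 CPM in injured and 195 CPM in control leukocytes, and Scx was in 20.3% of injured and 33.1% of control Myog-positive cells. The 5 erythroid markers summed to 167 CPM in injured and 94.8 CPM in control Myog-positive cells, against 3017 CPM in injured and 749 CPM in control leukocytes, and Hbb-bs was in 43.2% of injured and 40.4% of control Myog-positive cells. The 6 macrophage markers summed to 14.2 CPM in injured and 82.7 CPM in control cells, and the 5 endothelial markers to 23.1 CPM in injured and 18.7 CPM in control cells. The 6 satellite cell markers, among them Pax7 and Myf5, summed to 49.8 CPM in injured and 104 CPM in control cells. In progenitors, described below and chosen partly by Pax7 and Myf5, they summed to 863 CPM in the injured and 749 CPM in the control neonate.

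The threshold on Myog cut through a continuous range. Myog counts per cell had a lowest value of 2, a median of 18 and a highest value of 114 UMIs in the injured neonate, against a lowest value of 2, a median of 28 and a highest value of 155 UMIs in the control neonate. At least 10 UMIs were found in 57 injured and 115 control cells. Just inside the threshold lay 6 injured and 10 control cells with exactly 2 UMIs, and just outside it 38 injured and 182 control barcodes with exactly 1 UMI. Actc1 was detected in 1 of the 6 injured and 6 of the 10 control cells at 2 UMIs, against 3 of the 38 injured and 43 of the 182 control barcodes at 1 UMI. Another 3 injured and 11 control barcodes had enough Myog but at least 1 UMI of Cdh5, and none was lost through Ptprc.

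Myog-positive cells were a small share of both neonatal libraries. They made up 0.497% of filtered barcodes in the injured neonate (95% interval 0.391% to 0.624%), against 1.45% in the control neonate (1.23% to 1.70%). After every barcode was thinned to 2000 UMIs, with shallower barcodes left out, at least 1 UMI of Myog was found in 0.625% of injured and 1.84% of control barcodes. A share depends on every other cell type captured, so fewer Myog-positive cells and more cells of other types cannot be told apart. The same rule found 2 of 4625 barcodes in the injured adult and 2 of 6113 in the control adult. The injured adult pair had 2 UMIs of Myog each and order scores of 0.983 and 94.1 per 10000, while the control adult pair had 21 and 5 UMIs of Myog and scores of 58.0 and 74.7 per 10000.

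Most cells lay at the low end of the order, and the few scores of at least 100 were in control cells at the Myog threshold or marked as likely doublets. The order score had a median of 2.06 per 10000 UMIs, an upper quartile of 7.01 and a highest value of 36.2 in the injured neonate, against a median of 2.41, an upper quartile of 13.5 and a highest value of 1473 in the control neonate. No UMI of the 4 genes was found in 25 injured and 34 control cells. Scores of at least 100 were found in 0 injured and 4 control cells. Of these 4 control cells 2 had exactly 2 UMIs of Myog, and one of them had the highest score. The other 2 were marked as likely doublets. The next control score was 96.6, in an unmarked cell with 126 UMIs of Myog. Just outside the rule, at exactly 1 UMI of Myog, 1 injured and 11 control barcodes had scores of at least 100. The 95th percentile of leukocytes, 2.11 in the injured and 12.2 in the control library, was passed by 36 injured cells (48.6%) and 40 control cells (26.5%), so the weaker scores in the control library lay within the range of its leukocytes.

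**Figure D2:**
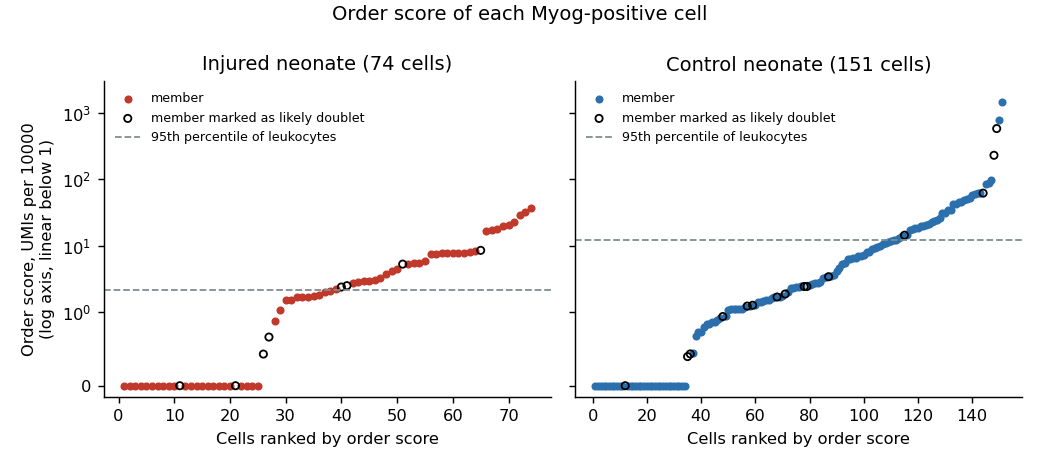
Order score of each Myog-positive cell (vertical axis, UMIs of Acta1, Mylpf, Myh3 and Myh8 per 10000, logarithmic above 1) against its rank in the injured (74 cells) and control (151 cells) neonate; open circles are cells marked as likely doublets and the dashed line is the 95th percentile of leukocytes. The injured cells end at 36.2, and 4 control cells lie above 100, up to 1473.

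Sarcomere genes other than the 4 used for ordering were higher in the upper part of the order. The cells of both libraries were cut together at scores of 0.931 and 6.39 into a lower, a middle and an upper tertile, which held 28, 27 and 19 injured cells and 47, 48 and 56 control cells. In the control neonate 84 of 1854 genes past the level filter (4.53%) were at least 2-fold higher and 78 (4.21%) at least 2-fold lower in the upper than in the lower tertile. In the injured neonate 112 of 1762 genes (6.36%) were higher and 116 (6.58%) lower by the same measure. The filter kept genes with a mean of at least 100 CPM over the groups compared. The 4 order genes are themselves contractile genes, so these counts describe what went along with the score. Of the extracellular matrix genes, 3 of 10 past the filter were at least 2-fold higher and none lower in the control upper tertile, with a median log2 ratio of 0.87, and 4 of 12 were higher and 1 lower in the injured upper tertile, with a median of 0.04. The part of matrix-expressing cells in the other ratios was not tested. The upper cut of 6.39 lay under the 95th percentile of control leukocytes, 12.2. Control leukocytes held Tnnc2 at 57.4 CPM and Myl1 at 74.2 CPM, but Tnnt2 at 1.36 CPM. The part of free muscle RNA in the score and in these ratios was not tested.

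Among thin filament genes and troponins, which form and regulate the actin filament, 9 of 12 past the filter in the control neonate were at least 2-fold higher in the upper tertile, with a median log2 ratio of 3.63 against −0.09 over all genes, and in the injured neonate 4 of 7 were higher, with a median of 1.41 against −0.01. In the control lower tertile Tnnt2, Tnni1, Tnnt3, Tnnc2, Tnnc1 and Tnni2 were under 100 CPM. They passed the filter there only through the upper tertile, so a higher level in it is built into the control count and median. In injured cells the same held for Tnnt2. Tnnt2, the cardiac troponin T that immature skeletal muscle expresses, was at 46.3, 191 and 446 CPM in the lower, middle and upper tertile of injured cells and at 29.8, 311 and 1161 CPM in those of control cells. Its log2 ratio of upper over lower tertile was 3.20 in injured and 5.24 in control cells. Levels went up along the order in both libraries and were highest in the control upper tertile. Tnni1, the slow troponin I, was at 10.3, 27.3 and 135 CPM in injured and at 16.7, 48.1 and 405 CPM in control tertiles. The fast troponins stood out in the control library. Tnnt3, the fast troponin T, had no UMI in the lower tertile and 373 CPM in the upper tertile of control cells, at least 66.7-fold higher when the lower tertile is set at a floor of 3 UMIs, and it reached 20.3 CPM in the upper tertile of injured cells. Tnnc2, the fast troponin C, was at 11.2, 12.8 and 793 CPM in control tertiles and at 0, 0 and 20.3 CPM in injured tertiles. Tnnc1, the slow troponin C, was at least 55.8-fold higher in the control upper tertile, but 47.3% of its UMIs there came from 1 cell. Tnni2, the fast troponin I, was at 5.58, 11.2 and 357 CPM in control tertiles and at 15.4, 13.7 and 20.3 CPM in injured tertiles. Single cells held 30.0% of the control upper tertile's UMIs of Tnnt3, 26.3% of those of Tnnc2 and 30.9% of those of Tnni2.

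The myosin light chains Myl1 and Myl4 were also high at the top of the order. In control cells both were under 100 CPM in the lower tertile and passed the filter only through the upper tertile. Myl1 was at 5.15, 41.0 and 74.4 CPM in the lower, middle and upper tertile of injured cells and at 3.72, 27.2 and 882 CPM in those of control cells, where 28.7% of the upper tertile's UMIs came from 1 cell. Myl4, the embryonic light chain, was at 10.3, 41.0 and 67.6 CPM in injured and at 24.2, 36.8 and 673 CPM in control tertiles, where 1 cell gave 37.4%. Of the Z disc, M band and titin genes, 5 of 6 past the filter were at least 2-fold higher in the control upper tertile and 3 of 4 in the injured upper tertile, with median log2 ratios of 1.31 and 1.15. Ttn, the molecular spring that links Z disc and M band, was at 257, 560 and 595 CPM in injured and at 234, 333 and 1167 CPM in control tertiles. Leaving out the control cell of highest score moved the log2 ratios of the 20 genes named along the order by at most 0.17, for Tnnt3. That cell was not the one rich in Myl4 or Tnnc1. Without it the control upper tertile went from 673 to 675 CPM for Myl4 and from 311 to 312 CPM for Tnnc1. This step therefore does not measure how far these ratios rest on 1 cell.

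Single regulators and fusion genes also followed the score, while their lists as a whole did not. Of 8 regulators past the filter in each library, 2 in control and 1 in injured cells were at least 2-fold higher and 1 in each was lower. Of the fusion genes, 2 of 8 in control and 2 of 6 in injured cells were higher and none lower. Myog itself was at 2614, 3662 and 4414 CPM in the lower, middle and upper tertile of injured cells and at 1877, 2154 and 3991 CPM in those of control cells. Mef2c, a transcription factor that works with the myogenic regulators, was at 41.2, 128 and 426 CPM in injured and at 52.1, 65.7 and 458 CPM in control tertiles. Myod1 ran the other way, at 376, 437 and 223 CPM in injured and 143, 107 and 93.5 CPM in control tertiles. Mymk was at 175, 342 and 412 CPM in injured and at 91.2, 128 and 331 CPM in control tertiles. Mymx, the small protein myomixer that works with myomaker, was at 92.6, 355 and 358 CPM in injured and at 93.0, 226 and 765 CPM in control tertiles. Mef2c and Mymx in both libraries, and Mymk in control cells, were under 100 CPM in the lower tertile. They passed the filter only through the upper tertile, so a higher level there is built into their part of the counts. Chrna1 had log2 ratios of 0.64 in injured and 0.52 in control cells, under 2-fold, and the 3 neuromuscular junction genes past the filter in each library held none that was 2-fold apart. Oxidative phosphorylation genes held none of 14 in control and 1 of 10 in injured cells at least 2-fold higher.

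G2M genes were lowest in the upper tertile in both libraries, and S phase genes were lowest there mainly in control cells. The 20 G2M genes, which are expressed as cells prepare for and pass through mitosis, summed to 592, 1262 and 183 CPM in the lower, middle and upper tertile of injured cells and to 1377, 1094 and 136 CPM in those of control cells. After thinning to 2000 UMIs, at least 2 G2M UMIs were found in 2 of 26, 6 of 27 and 1 of 19 injured cells and in 12 of 45, 12 of 48 and 3 of 54 control cells of the lower, middle and upper tertile, while without thinning the numbers were 6, 11 and 2 injured and 26, 18 and 11 control cells. The 20 S phase genes summed to 453, 483 and 406 CPM in the lower, middle and upper tertile of injured cells and to 1215, 817 and 400 CPM in those of control cells. In control cells 1 gene of each list passed the filter and was at least 2-fold lower in the upper tertile, and in injured cells none passed the filter. A single injured cell held 59.1% of the G2M UMIs of its lower tertile. Top2a, the topoisomerase of dividing cells, had a log2 ratio of −1.93 in injured and −3.37 in control cells. In control cells it was at 261 CPM in the lower and 24.5 CPM in the upper tertile. It passed the filter there only through the lower tertile, so its direction is built into the G2M count. H2az1, a histone variant, was at 967, 1467 and 473 CPM in injured and at 1472, 1283 and 426 CPM in control tertiles. Stmn1, which destabilises microtubules, was at 87.5, 328 and 54.1 CPM in injured and at 560, 360 and 117 CPM in control tertiles. The basement membrane genes Col4a1 and Col15a1 were lower in the control upper tertile, with log2 ratios of −2.25 and −2.35. Both were under 100 CPM in that tertile and passed the filter only through the lower tertile, so this direction is built in. In injured cells they stood at −1.19 and −2.00. Cdkn1c, the cell cycle inhibitor p57, was at 4518, 5416 and 7355 CPM in injured and at 8980, 8616 and 12179 CPM in control tertiles.

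Other genes at the ends of the control order were Trim55, which encodes a ubiquitin ligase of the sarcomere, with a log2 ratio of 2.19 in injured and 3.28 in control cells, and Col2a1, the cartilage collagen, with 3.92 in control cells. One cell held 95% of the Col2a1 UMIs of the control upper tertile, and its ratio was −0.35 once likely doublets were removed. At the low end stood H1f5 (−2.22), Pde4b (−1.86), Ncoa7 (−1.84), Cks2 (−1.81) and Cep41 (−1.80) in control cells, whose log2 ratios in injured cells were 0.03, −3.03, −1.19, −0.67 and −1.84 in the same gene order. One cell held 71.7% of the H1f5 UMIs of the control upper tertile. The log2 ratio of H1f5 was 0.0083 once every cell was thinned to 2000 UMIs. In control cells Trim55 and Col2a1 were under 100 CPM in the lower tertile, and H1f5, Pde4b, Ncoa7, Cks2 and Cep41 in the upper. Each passed the filter only through the other tertile, so its direction is built in.

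**Figure D3:**
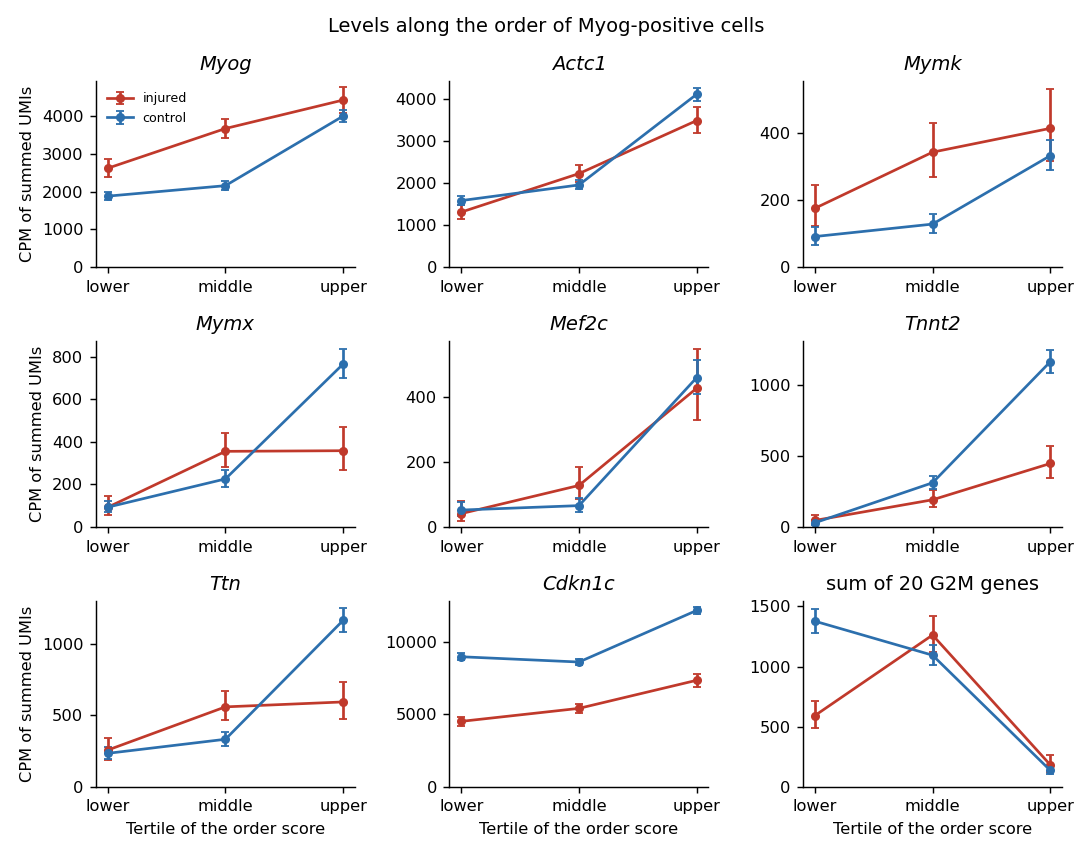
Level (vertical axis, CPM of summed UMIs, with exact Poisson 95% intervals that cover counting error only) of 8 genes and of the sum of 20 G2M genes in the lower, middle and upper tertile of the order score (horizontal axis), in injured and control Myog-positive cells. Tnnt2 ends at 446 CPM in injured and 1161 CPM in control cells, and the G2M sum ends at 183 CPM in injured and 136 CPM in control cells.

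Set beside Myog-negative muscle progenitors of the same library, the Myog-positive cells had more RNA of most thin filament genes and of Mymk and Mymx, and less of the satellite cell and G2M genes. The progenitors had no Myog UMI, at least 3 UMIs of Pax7, Myf5 and Myod1 together, and the same limits on Ptprc and Cdh5; 103 were found in the injured and 345 in the control neonate. Both sets were chosen by muscle regulators, so the difference is a description. Pax7 and Myf5, both satellite cell markers, helped choose the progenitors, so less of them in Myog-positive cells is built in. Of the listed satellite cell and quiescence genes, 5 of 5 past the filter were at least 2-fold lower in the injured neonate. In the control neonate 3 of 4 were. Of that list only Fgfr4 reached 100 CPM in Myog-positive cells. The others passed only through the progenitors, so their direction is built in too. At least 2-fold higher in Myog-positive cells were 130 of 1856 genes (7.0%) in the injured and 109 of 1962 (5.56%) in the control neonate, and at least 2-fold lower were 202 (10.9%) in the injured and 186 (9.48%) in the control neonate.

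Mymx was at 265 CPM in Myog-positive cells and 2.52 CPM in progenitors of the injured neonate, and at 380 CPM and 0.234 CPM in those of the control neonate. Mymk was at 303 CPM in injured Myog-positive cells and 5.05 CPM in injured progenitors, and at least 270-fold higher in control Myog-positive cells than in control progenitors, which had 0 UMIs. Of the whole fusion list, with these genes in it, 3 of 9 past the filter were at least 2-fold higher and 2 lower in the injured neonate, and 2 of 8 were higher and none lower in the control neonate, with median log2 ratios of −0.08 and 0.04. Actc1 was at 2243 CPM in Myog-positive cells and 10.1 CPM in progenitors of the injured neonate, and at 2622 CPM and 29.1 CPM in those of the control neonate. Tnnt2 had no UMI in injured progenitors, a level at least 55.0-fold higher in injured Myog-positive cells, and a log2 ratio of 8.69 in the control neonate. Of the thin filament genes past the filter, 6 of 7 in the injured and 7 of 9 in the control neonate were at least 2-fold higher. Mymx, Actc1, Tnnt2, Acta1 and Neb were under 100 CPM in progenitors of both libraries, as was Mymk in the injured neonate. They passed the filter only through the Myog-positive cells, so a higher level there is built into these counts. In the injured neonate Mylpf was at 39.2 CPM in Myog-positive cells and 45.4 CPM in progenitors, and Tnnc2 at 5.34 CPM in Myog-positive cells and 13.9 CPM in progenitors.

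Cdkn1c was at 5616 CPM in Myog-positive cells and 767 CPM in progenitors of the injured neonate, and at 10005 CPM and 2771 CPM in those of the control neonate. G2M genes past the filter were all at least 2-fold lower, 6 of 6 in the injured and 5 of 5 in the control neonate, with median log2 ratios of −1.68 and −1.69. Of the listed G2M genes only Top2a reached 100 CPM in Myog-positive cells, at 119 CPM in injured and 147 CPM in control cells. The others passed only through the progenitors, so a lower level in Myog-positive cells is built into these counts and medians. The sum of all 20 listed G2M genes, taken without the filter, was 746 CPM in Myog-positive cells and 2399 CPM in progenitors of the injured neonate, and 834 CPM and 2777 CPM in those of the control neonate. The genes with the largest ratios in both libraries, ranked after their values were seen by the smaller of the 2 ratios, also held Dpp6, a potassium channel subunit, Slc24a3, a sodium, potassium and calcium exchanger, Elmo1, which takes part in Rac activation, the muscle noncoding RNA Lincmd1, and Neb, the giant ruler of the thin filament, on the higher side. On the lower side they held Vav3, Cav1, Tnc, Adcy2, Tagln, Ror1, the adhesion molecule Vcam1, the helix-loop-helix inhibitor Id3, and the basement membrane collagens Col4a1 and Col4a2. Those named on the higher side were under 100 CPM in progenitors. Those on the lower side, except Id3 and Col4a1, were under 100 CPM in Myog-positive cells. These passed the filter only through the set where they were higher, so their direction is built in. Vcam1 was at 17.8 CPM in Myog-positive cells and 194 CPM in progenitors of the injured neonate, and at 52.9 CPM and 278 CPM in those of the control neonate. Id3 was at 103 CPM in Myog-positive cells and 536 CPM in progenitors of the injured neonate, and at 174 CPM and 848 CPM in those of the control neonate.

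Between the injured and control Myog-positive cells, 49 of 1836 genes past the filter (2.67%) were at least 2-fold higher in injured cells and 86 (4.68%) at least 2-fold lower, with a median log2 ratio of −0.06 over all of them. For 16 genes the counting interval lay wholly beyond 2-fold higher and for 37 wholly beyond 2-fold lower. Injured cells had more Myod1 and less RNA of myosin light chains and troponins, while Myog, Actc1, Chrna1 and the fusion genes were within 2-fold. The 2 libraries also differed in depth, in the share of cells with Xist and in the spread of the order score. Values for subsets of cells by Y-linked UMIs and by place in the order are given among the processing alternatives.

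Of the myogenic regulators 9 passed the filter, with 2 higher, 1 lower and a median log2 ratio of 0.06. Among these, Mef2d was under 100 CPM in control cells and Id1 in injured cells. Each passed the filter only through the library where it was higher, so its direction is built into these counts. Myod1 was at 360 CPM in injured and 113 CPM in control cells, a log2 ratio of 1.67 (95% counting interval 1.38 to 1.96), and in progenitors it was at 223 CPM in the injured and 68.7 CPM in the control neonate. The progenitors were chosen partly by Myod1 itself. Mef2d, another partner of the myogenic regulators, was at 150 CPM in injured and 71.1 CPM in control cells, a log2 ratio of 1.08 (0.66 to 1.48). Id1, which blocks helix-loop-helix factors from binding DNA, was at 73.0 CPM in injured and 178 CPM in control cells, a log2 ratio of −1.27 (−1.79 to −0.81). Myog was at 3498 CPM in injured and 2733 CPM in control cells, a log2 ratio of 0.36 in the gene that chose the cells. Mef2a, Mef2c, Tcf12, Eya4 and Id3 had log2 ratios of −0.36, −0.20, 0.17, 0.06 and −0.74.

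None of the 8 fusion genes past the filter was 2-fold apart, and their median log2 ratio was −0.40. Mymk was at 303 CPM in injured and 190 CPM in control cells, a log2 ratio of 0.67 (0.40 to 0.94). Mymx was at 265 CPM in injured and 380 CPM in control cells, a log2 ratio of −0.52 (−0.79 to −0.26). The tetraspanins Cd9 and Cd81, the adhesion molecules Cdh15 and Jam3, the integrin Itgb1 and the adaptor Dock1 had log2 ratios of −0.72, −0.98, −0.56, 0.34, −0.28 and 0.34.

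Myosin light chains and troponins were lower in injured cells, and Actc1 and titin were within 2-fold. Without the order genes, 2 of 3 sarcomeric myosin genes past the filter were lower, with a median log2 ratio of −2.78, and 4 of 9 thin filament genes, with a median of −0.75. Both of these myosin genes and 2 of the 9 thin filament genes were under 100 CPM in injured cells and so passed the filter only through the control cells, for which a lower level in injured cells is built into the count. Mylpf was at 39.2 CPM in injured and 655 CPM in control cells, a log2 ratio of −4.03 (−4.74 to −3.46). Myl1 and Myl4 were both at 37.4 CPM in injured cells, against 327 and 262 CPM in control cells. Tnnc2 had 3 UMIs in injured cells, at 5.34 CPM, and was at 293 CPM in control cells, a log2 ratio of −5.56 (−8.06 to −4.22). Single cells held 28.2% of the control UMIs of Mylpf, 27.8% of those of Myl1, 34.5% of those of Myl4 and 25.6% of those of Tnnc2. Leukocytes of the same libraries differed the same way, with log2 ratios of −2.82 for Mylpf, −3.29 for Myl1, −1.51 for Myl4 and −3.31 for Tnnc2, and the part of free muscle RNA in the ratios of the Myog-positive cells was not tested. Tnnt2, at 0.357 CPM in injured and 1.36 CPM in control leukocytes, was at 208 CPM in injured and 533 CPM in control cells, a log2 ratio of −1.35 (−1.65 to −1.08), and Tnni1 and Tnnt1 had log2 ratios of −1.72 and −1.22. Acta1 was at 466 CPM in injured and 1252 CPM in control cells, a log2 ratio of −1.42. Among cells below the pooled median of the order Myl1 had 9 UMIs in injured and 8 UMIs in control cells, a log2 ratio of 1.72. Actc1 was at 2243 CPM in injured and 2622 CPM in control cells, a log2 ratio of −0.23, and Ttn, Neb and Des had log2 ratios of −0.38, 0.14 and 0.70.

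Calcium handling and junction genes past the filter stood the other way or near 0. Among calcium genes below the filter, Sln, Casq2 and Mrln had log2 ratios of −2.64, −2.40 and −1.01. Trdn, also below it, had 0 UMIs in injured and 24 UMIs in control cells. Ryr1 and Cacng1, below it too, were higher in injured cells, with log2 ratios of 1.11 and 1.47. Atp2a1, the calcium pump of fast sarcoplasmic reticulum, was at 201 CPM in injured and 60.6 CPM in control cells, a log2 ratio of 1.73 (1.34 to 2.12). It was the only one of 6 excitation-contraction genes past the filter at least 2-fold apart. It passed the filter only through the injured cells, so a higher level there is built in. It was also higher in the upper tertile of the order, where it stood at 466 CPM in injured and 129 CPM in control cells. Chrna1 was at 361 CPM in injured and 343 CPM in control cells, a log2 ratio of 0.08 (−0.16 to 0.30). Dok7, an adaptor of the neuromuscular junction, and Ncam1, a neural cell adhesion molecule, had log2 ratios of 0.87 and 0.69. Of 8 genes of the dystrophin complex and costamere, Itga6 alone was 2-fold apart, with a log2 ratio of −1.28. Itga6 was under 100 CPM in injured cells and passed the filter only through the control cells, so this direction is built in.

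**Figure D4:**
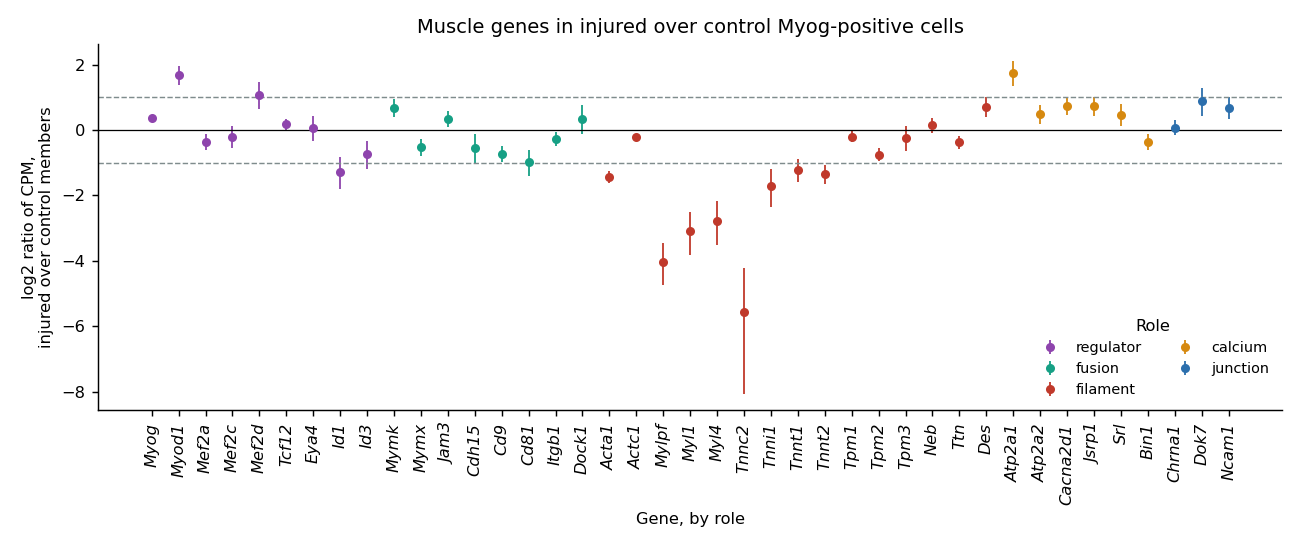
Log2 ratio of CPM in injured over control Myog-positive cells (vertical axis) of muscle genes past the level filter, grouped by role, with counting intervals; dashed lines mark 2-fold. Myod1, Mef2d and Atp2a1 lie above 2-fold, and Id1, Acta1, Mylpf, Myl1, Myl4, Tnnc2, Tnni1, Tnnt1 and Tnnt2 lie below it.

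The highest ratios outside these lists belonged to Ptprf, a receptor tyrosine phosphatase, at 180 CPM in injured and 43.0 CPM in control cells (log2 ratio 2.06, 1.62 to 2.51), to Cox17, a copper chaperone of cytochrome oxidase, with 1.88, and to Dpp6, at 691 CPM in injured and 202 CPM in control cells (1.78, 1.57 to 1.99). Pmepa1, Tmsb10, Esr1, Lmo4 and Homer2 followed with log2 ratios of 1.68, 1.63, 1.63, 1.62 and 1.44, and 1 cell held 24.7% of the injured UMIs of Tmsb10. The lowest were Col2a1 with −7.21 (1 UMI in injured cells, and 69.4% of the control UMIs in 1 cell), H1f5 with −2.78, Cebpd with −2.71, Hspb1 with −2.64, Txnip with −2.30 and Ccn1 with −2.25, beside the 4 contractile genes above. Cebpd, an inflammation-responsive transcription factor, was at 69.4 CPM in injured and 460 CPM in control cells. Txnip, an inhibitor of thioredoxin, was at 80.1 CPM in injured and 399 CPM in control cells. Ptprf, Cox17, Pmepa1, Esr1, Lmo4 and Homer2 were under 100 CPM in control cells. All of the genes named as lowest were under 100 CPM in injured cells. These genes passed the filter only through the library where they were higher, so their direction is built in.

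Some of these ratios were also seen in other cells of the same 2 libraries. Of the 10 genes named as highest, 4 passed the level filter in progenitors, where 3 were at least 2-fold higher in the injured library, beside 3.33% of all genes. Myod1 was among these 3, and the progenitors were chosen partly by a fixed count of its UMIs. The progenitors had median depths of 6277 UMIs in the injured and 11277 UMIs in the control library, so the Myod1 ratio there is a description only. In leukocytes 2 of the 10 passed the filter and 1 was higher, beside 6.31% of all genes. Of the 10 named as lowest, 4 passed it in progenitors, where all 4 were at least 2-fold lower, beside 4.97% of all genes. In leukocytes 4 passed it and 3 were lower, beside 6.88% of all genes. In progenitors Myod1 was under 100 CPM in the control library, and H1f5 and Txnip in the injured library. In leukocytes Col2a1, Cebpd and Ccn1 were under 100 CPM in the injured library. These passed the filter only through the library where they were higher, so their direction is built into the counts. Cebpd had log2 ratios of −2.61 in progenitors and −1.70 in leukocytes, H1f5 of −2.31 and −4.02, and Tmsb10 of 1.33 and 1.89. Ptprf, Dpp6 and Homer2 had log2 ratios of −0.86, 0.25 and −0.62 in progenitors and of −0.14, −1.32 and −0.80 in leukocytes. The difference between the cell types in these ratios was not tested, since each rests on the same pair of libraries.

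**Figure D5:**
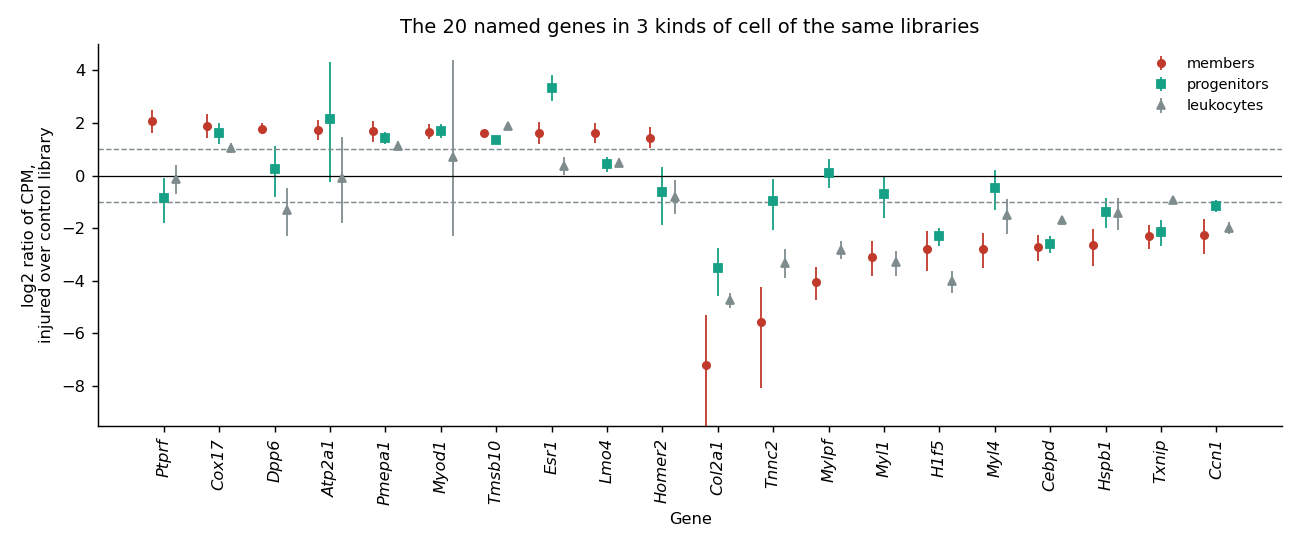
Log2 ratio of CPM in the injured over the control neonatal library (vertical axis) of the 20 genes with the highest and lowest ratios in Myog-positive cells (members), shown beside the ratios in progenitors and leukocytes, with counting intervals; dashed lines mark 2-fold, and the interval of Col2a1 runs below the axis. Cebpd lies below 2-fold in all 3 sets, at −2.71, −2.61 and −1.70, while Ptprf stands at 2.06 in Myog-positive cells, −0.86 in progenitors and −0.14 in leukocytes.

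Some heat shock, immediate early and growth genes were lower in injured cells, though most members of each list past the filter were within 2-fold. Over all genes 4.68% were lower. Of the heat shock genes 4 of 9 past the filter were lower and none higher, with a median log2 ratio of −0.74, among them the chaperone Hsp90aa1 at 320 CPM in injured and 1163 CPM in control cells (−1.86) and its partner Dnaja1 at 199 CPM in injured and 683 CPM in control cells (−1.77). Hsp90aa1 had log2 ratios of −1.78 in progenitors and −1.71 in leukocytes. Of the immediate early genes, which respond fast to growth signals and stress, 4 of 14 were lower and none higher, with a median of −0.75. Junb was at 497 CPM in injured and 1533 CPM in control cells (−1.62), and Fos at 1844 CPM in injured and 2957 CPM in control cells (−0.68). Of 14 imprinted and growth genes 2 were lower, Dlk1 at 297 CPM in injured and 953 CPM in control cells (−1.68) and Igf2bp3 (−1.45), while Mest, Igf1, H19 and Rian had log2 ratios of 0.69, 0.61, 0.45 and 0.30. The heat shock genes Hspb1 and Bag3, the immediate early gene Dusp1 and Igf2bp3 were under 100 CPM in injured cells. They passed the filter only through the control cells, so a lower level in injured cells is built into their part of these counts. Cdkn1c was at 5616 CPM in injured and 10005 CPM in control cells (−0.83), and in progenitors its log2 ratio was −1.85. Of 9 cell cycle exit genes 2 were lower, Gadd45g (−1.76) and Btg2 (−1.09). None of 13 oxidative phosphorylation genes and none of 11 extracellular matrix genes past the filter was 2-fold apart, and the matrix genes had a median log2 ratio of −0.03.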

How the data were processed

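Each deposited matrix gives a whole-number UMI count for every gene and barcode. The authors made it with Cell Ranger 8.0.1, as the file headers record. The submitters' processing notes name the build GRCm39. Other steps of the authors are not given in the sources used here. The matrices list 33696 genes.

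Barcodes were filtered and chosen as the report states. The members and the 22 gene lists were chosen with earlier results of these data known. UMIs were summed over cells and scaled to CPM. Log2 ratios had 0.5 counts added, with exact conditional binomial 95% intervals; shares had exact Clopper-Pearson intervals. The ratio step was tested on simulated data. With 1 library per group no test between groups was run, and a gene was counted as apart at 2-fold when its mean level was at least 100 CPM. Genes were named as the 10 highest and 10 lowest ratios whose interval lay beyond 2-fold, without mitochondrial, ribosomal protein, hemoglobin, Xist, Y-linked and predicted genes, plus the genes of the lists. Likely doublets were marked by Scrublet in scanpy 1.11.5 at 0.8% per 1000 barcodes and kept. Thinning drew 2000 UMIs per cell without replacement. PCR duplicates were collapsed by UMI, and intervals leave out the spread between mice.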

Additional observations from a re-analysis of the deposited data

How the results depend on the processing

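With 1 library per group, neither the spread between mice nor a library effect can be measured, and no paired analysis was possible because no group held replicates. Of 29 named genes past 2-fold between injured and control cells, 20 stayed past it in the same direction under every alternative run, and 308 of 317 single values did. The exceptions came from the cells below the pooled median of the order, where 23 of 29 remained, and from the 13 injured cells that had Y-linked UMIs without Xist, where 26 of 29 did. Below that median the log2 ratio of Myl1 was 1.72 from 9 injured and 8 control UMIs, and that of Acta1 0.017, which the split limits since Acta1 is part of the order score. Along the control order Col2a1 stood at −0.35 without likely doublets and at −0.42 without cells rich in fibroblast or chondrocyte markers, and H1f5 at 0.0083 after thinning. The alternatives without the control cell of highest score, without those marker-rich cells, without each gene's highest barcode and with a Myog minimum of 4 UMIs were chosen after seeing the data.

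The share of Myog-positive cells was 0.752% in injured and 3.19% in control barcodes at a Myog minimum of 1 UMI, and 0.625% in injured and 1.84% in control barcodes after thinning. The median order score without Acta1 was 0.0 in injured and 0.72 in control cells. The counts of genes at least 2-fold higher and lower in injured cells, 49 and 86, were 113 and 190 at a mean of at least 50 CPM, 23 and 33 at 200 CPM, and 2688 and 2167 with no level filter, which admits genes of few UMIs. They were 160 and 168 with the 13 Y-linked injured cells, where the median log2 ratio of the immediate early genes was −1.44. Above the pooled median of the order 75 genes were higher. After thinning, 165 genes were at least 2-fold lower in the control upper tertile. The causes of these shifts were not tested.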
